A study of Mus musculus with 2 samples.

Results

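Sorted mammary basal cells of control mice and of mice treated with clodronate liposomes (CL) were compared for 10 early response transcription factor genes, the AP-1 genes *Fos*, *Fosb*, *Fosl1*, *Fosl2*, *Jun*, *Junb* and *Jund*, the stress factor gene *Atf3*, and the zinc finger genes *Egr1* and *Egr2*. They were taken by gene symbol from a count table of 49492 genes, and all 10 were found. RNA had been sequenced from 1 library of each group. Both groups were adult female wild-type mice, both libraries were labelled day 7, and how many animals were pooled is not given in the sources used here. The CL group had received repeated intraperitoneal injections of liposomes that kill the macrophages that swallow them. The control is labelled as having had no treatment, while the series text says saline. The cells were negative for the blood and endothelial markers of the sort, positive for CD24 and high for CD29. The Ctrl basal library held 37846008 counts and the CL basal library 38962512, and 17356 genes had at least 20 counts summed over both and are called tested below. With 1 library per group there was no replicate check, so no p-value is given, and each interval covers counting error only and says nothing of the spread between mice.

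AP-1 is a dimer of leucine zipper proteins that binds DNA. Fos proteins need a Jun partner, whereas Jun proteins also pair with one another, and ATF3 can pair with Jun proteins. Early response genes are switched on within minutes of a growth factor, cytokine or stress signal without new protein synthesis, through kinases that act on factors already bound at their promoters, and most of their mRNAs are short-lived. In epithelium AP-1 controls genes of growth, migration and matrix turnover. Cutting up and digesting a tissue is itself known to switch on these genes.

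The sort was checked by marker genes. The 12 basal and myoepithelial markers came to a sum of 20915 CPM, that is counts relative to the size of the library, in Ctrl basal and 21855 in CL basal. The most counts were in the smooth muscle myosin gene *Myh11* (285095 and 290054) and the keratin gene *Krt14* (210758 and 232845). Of the 12, 8 were higher in CL basal and 4 lower, none by 1.5-fold. The lowest was the keratin gene *Krt5* (47049 and 40295 counts). The 14 luminal markers summed to 5180 CPM in Ctrl basal and 3263 in CL basal, and all 14 were lower in CL basal, 11 of them by at least 1.5-fold, against 11.7% of all tested genes. In bulk RNA, fewer cells of a type cannot be told apart from less RNA per cell. The 13 macrophage markers summed to 52.7 and 42.8 CPM, none of them was at 0 in both libraries, and the macrophage receptor gene *Adgre1* had 7 and 10 counts. The fibroblast list (7 genes) summed to 255 and 208 CPM, the endothelial list (7 genes) to 432 and 353, the lymphoid list (9 genes) to 5.95 and 5.62 and the erythroid list (6 genes, 3 of them at 0) to 0.913 and 0.364, each with Ctrl basal first.

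The early response genes have promoters with known types of site, and 4 are shown to let the most different genes be set side by side. RefSeq (GRCm38) gave a promoter window of 300 bases, 250 before and 50 after the start site, for 8 of the 10 genes. *Fosl1* and *Egr1* were not matched. Each line gives the 250 bases before the start, 5′ to 3′ on the strand of the gene, in lower case, with capitals for a match to any of the 5 motifs that were searched. *Fos* had the largest difference between the libraries and *Jun* one of the smallest, *Fosb* holds an EGR site, and *Egr2*, shown at 1 of its 5 annotated starts, holds a CArG box.
Fos, chr12:85473640-85473889, plus strand: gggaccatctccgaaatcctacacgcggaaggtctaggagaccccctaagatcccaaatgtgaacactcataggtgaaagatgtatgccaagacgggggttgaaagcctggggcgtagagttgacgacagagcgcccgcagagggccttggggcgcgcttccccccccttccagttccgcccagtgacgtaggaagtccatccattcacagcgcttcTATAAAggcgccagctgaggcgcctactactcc
Jun, chr4:95052223-95052472, minus strand: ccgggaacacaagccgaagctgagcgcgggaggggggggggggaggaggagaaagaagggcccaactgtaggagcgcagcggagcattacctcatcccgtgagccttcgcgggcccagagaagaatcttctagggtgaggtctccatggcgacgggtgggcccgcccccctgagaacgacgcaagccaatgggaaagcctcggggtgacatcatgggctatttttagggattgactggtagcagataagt
Fosb, chr7:19310046-19310295, minus strand: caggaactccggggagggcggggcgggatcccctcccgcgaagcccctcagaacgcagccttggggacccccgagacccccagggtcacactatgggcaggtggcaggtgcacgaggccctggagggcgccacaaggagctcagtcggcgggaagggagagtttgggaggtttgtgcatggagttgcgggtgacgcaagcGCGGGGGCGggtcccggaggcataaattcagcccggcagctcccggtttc
Egr2, chr10:67537619-67537868, plus strand: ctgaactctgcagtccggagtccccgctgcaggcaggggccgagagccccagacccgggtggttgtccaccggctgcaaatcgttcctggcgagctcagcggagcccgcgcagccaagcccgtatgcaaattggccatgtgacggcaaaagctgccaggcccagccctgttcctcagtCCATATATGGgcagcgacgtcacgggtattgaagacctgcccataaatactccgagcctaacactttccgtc
The capitals in *Fos* are a TATA box (TATAAA), which ends 27 bases before the start. Those in *Fosb* are an EGR site (GCGTGGGCG or GCGGGGGCG), which ends 41 bases before it, and those in *Egr2* are a CArG box, the site of the factor SRF, which ends 62 bases before it. *Jun* has none of these motifs in this window.

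Motifs were searched on both strands over the whole 300 bases. The TATA box was in *Fos* and *Junb*, 2 of the 8 matched genes, against 15.7% of the 27025 genes with a window. The *Junb* match begins at the RefSeq start, which lies 30 bases upstream of the gene's 5′ end in the count table. The EGR site was in *Fosb* and *Fosl2*, against 3.93% of genes. The CArG box was in *Egr2* alone, in 4 windows of which 3 hold the same site, against 1.81% of genes. The AP-1 site TGACTCA, which reads TGAGTCA on the other strand, was in 0 of the 8, against 5.95% of genes, and the cAMP response element TGACGTCA in 0 of the 8, against 2.03%. These matches are letters in a short window and do not show that a factor binds. A window without a match can still hold a variant of the site. Sites beyond the window were not searched, so a gene without a match may have the site further upstream. For 4 of the 8 genes a RefSeq start lies more than 500 bases from the gene's 5′ end in the count table, so the window may not be the promoter of the counted transcripts. It lies 34706 bases inside the gene for *Atf3*, 671 inside for *Fosl2* and 1210 upstream for *Jund*, and 2394 inside for the *Egr2* start shown.

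Of the 10 genes, 8 ranked among the 500 highest of the tested genes by level in both libraries, while *Egr2* (rank 1297 in Ctrl basal and 1029 in CL basal) and *Fosl2* (2580 and 2254) lay lower. Together the 10 genes held 219873 counts in Ctrl basal and 258201 in CL basal, which is 0.581% and 0.663% of all counts. Each had over 10000 counts summed over both libraries, as had 1505 of the tested genes. Levels of different genes are compared here as RPKM, which are counts scaled to exon length and to library size. The length is that of all annotated exons of a gene, so a gene whose usual transcript uses only part of that length is placed lower than its transcript would be.

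**Figure D1:**
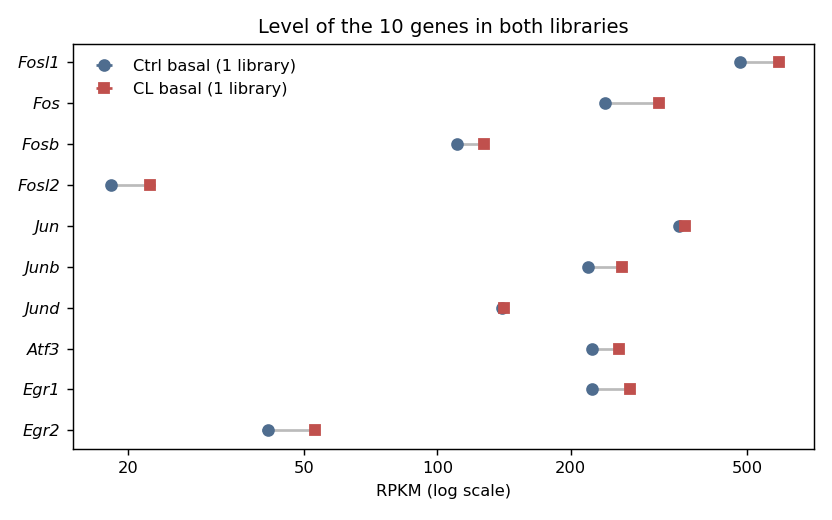
Level of each of the 10 genes in Ctrl basal (blue circles) and CL basal (red squares), 1 library each, as RPKM (counts scaled to exon length and library size) on a log scale. 95% Poisson intervals for counting error are drawn and are smaller than the symbols. *Fosl1* had the highest level and *Fosl2* the lowest in both libraries, and the distance between the symbols is smallest for *Jund* and *Jun*.

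In Ctrl basal the order by RPKM was *Fosl1* (482), *Jun* (351), *Fos* (239), *Egr1* (224), *Atf3* (223), *Junb* (218), *Jund* (140), *Fosb* (111), *Egr2* (41.4) and *Fosl2* (18.4). Among tested genes *Fosl1* ranked 96 and *Fosl2* ranked 2580. The levels of *Egr1* and *Atf3* did not differ beyond counting error in Ctrl basal (95% Poisson intervals 221 to 226 for *Egr1* and 220 to 226 for *Atf3*), and the interval of *Junb*, 215 to 222, overlapped both. In CL basal the order was the same except that *Junb* (262) stood before *Atf3* (257), and the intervals of these 2 genes overlapped again (258 to 265 for *Junb* and 253 to 260 for *Atf3*).

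All 10 genes had more scaled reads in CL basal (9 with scaling by total counts, and 8 once a trend with abundance was taken out), but the differences were small and 0 of the 10 reached 1.5-fold in either direction. Among all tested genes, 6.33% were at least 1.5-fold higher in CL basal and 11.7% at least 1.5-fold lower, and 6.86% differed by at least 2-fold in either direction, which 0 of the 10 did. In the 1505 genes of at least 10000 counts, the class that holds all 10, these shares were only 0.598% higher and 1.93% lower, so the absence of a 1.5-fold difference is what most genes of this abundance showed. The log2 fold changes (CL basal over Ctrl basal) ran from 0.01 to 0.41 with a median of 0.27, against a median of -0.01 over all tested genes and 0.09 over the abundant class.

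The direction has to be read against that class. A log2 fold change above 0 was found for 10 of the 10 genes, for 67.3% of the abundant class and for 48.2% of all tested genes. The whole counting interval lay above 0 for 9 of the 10, *Jund* being the exception, and for 59.1% of the abundant class. Of the 10 genes, 8 lay above the class median and *Jun* and *Jund* below it, and all 10 lay within the middle 95% of the class, which ran from -0.45 to 0.44. If the spread between mice had a coefficient of variation of 0.2, an assumed value that these libraries cannot give, an interval for each of the 10 log2 fold changes would include 0. That follows from its width: around *Jund*, at 0.01, it would run from -0.78 to 0.81, past 1.5-fold on both sides. Any gene of this abundance short of 1.5-fold would include 0 as well, so the outcome is not particular to the 10.

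**Figure D2:**
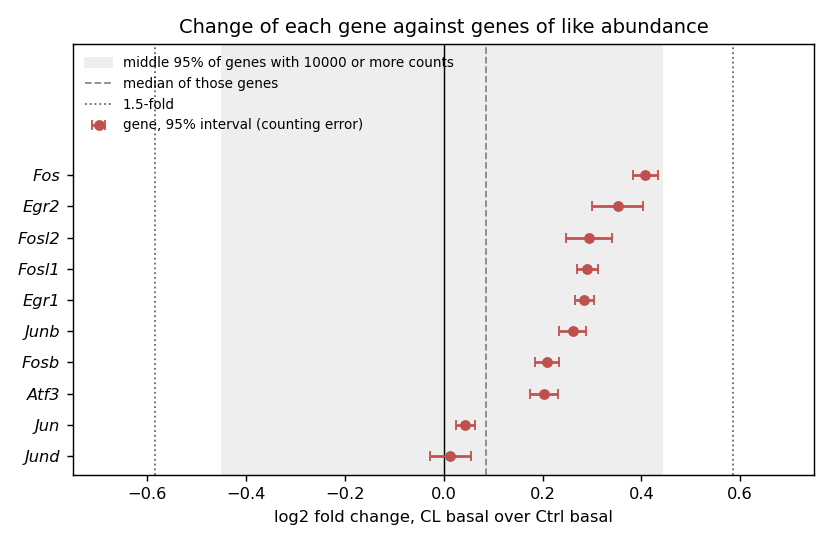
Log2 fold change of each gene, CL basal over Ctrl basal, with 95% intervals for counting error only (points and bars). The grey band is the middle 95% of the 1505 genes with at least 10000 counts, the dashed line their median and the dotted lines 1.5-fold. *Fos* is the highest at 0.41 and *Jund* the lowest at 0.01, and all 10 points lie inside the band and the dotted lines.

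The Fos family genes encode the partners that bring transactivation or, for *Fosl1* and *Fosl2*, a weaker form of it, to AP-1. *Fos* (chromosome 12, 85473890 to 85477273, plus strand, 4 exon blocks), the best known early response gene, had 21578 counts in Ctrl basal and 28699 in CL basal. Its RPKM was 239 and 317, a log2 fold change of 0.41 (95% exact binomial interval 0.38 to 0.43), the largest of the 10. It stood at percentile 96.1 of the abundant class. *Fosl1* (chromosome 19, 5447703 to 5455945, plus strand), which encodes FRA1, had 31579 and 38732 counts in the same order, and its log2 fold change was 0.29 (0.27 to 0.31). *Fosb* (chromosome 7, 19302696 to 19310051, minus strand) had 26457 and 30671 counts, and its log2 fold change of 0.21 (0.19 to 0.23) was the lowest of the family. *Fosl2* (chromosome 5, 32135801 to 32157842, plus strand), which encodes FRA2, had 6814 and 8379 counts, and the interval of its log2 fold change of 0.29 (0.25 to 0.34) overlapped that of *Fosl1*.

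The Jun family genes encode the partners that every Fos dimer needs. *Jun* (chromosome 4, 95049034 to 95052222, minus strand, 1 exon) had 42904 counts in Ctrl basal and 44336 in CL basal, the most counts of the family. Its log2 fold change was 0.04 (0.02 to 0.06), below the 0.09 median of genes of its abundance. *Junb* (chromosome 8, 84974484 to 84978718, minus strand) had 19276 and 23162 counts and a log2 fold change of 0.26 (0.23 to 0.29), which stands apart from its relatives and within the range of the Fos family. *Jund* (chromosome 8, 70698949 to 70700616, plus strand, 1 exon), the member that is known to vary least with stimulation, had 8971 and 9080 counts. Its log2 fold change of 0.01 (-0.03 to 0.06) showed no difference detectable at this depth. The signs of *Jun* and *Jund* depended on centring: they were at -0.036 and -0.069 once a smooth trend with abundance had been taken out, and with scaling by total counts *Jund* was at -0.025.

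Exons of the 3 Jun genes overlap genes on the opposite strand, and the use of strand in counting was not stated. *Jund* is the most affected, since 877 of its 1668 exonic bases are shared with *Gm11175*, and these are all the exonic bases of *Gm11175*. That gene had 5981 counts in Ctrl basal and 6024 in CL basal (0.01, -0.05 to 0.06). Whether the same reads were counted for both genes is not stated. *Jun* shares 232 of 3189 bases with *Junos* (2475 and 2647 counts, 0.09, 0.01 to 0.17), and *Junb* shares 173 of 2301 with *Prdx2* (610 and 585 counts, -0.06, -0.23 to 0.10). The other 7 genes share no exonic base with another gene of the table.

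*Atf3* (chromosome 1, 191170296 to 191218039, minus strand) encodes a factor induced by many kinds of stress. It had 18438 counts in Ctrl basal and 21270 in CL basal, with RPKM of 223 and 257. The log2 fold change was 0.20 (0.17 to 0.23), close to that of *Fosb*, and the intervals of these 2 genes overlapped. It stood at percentile 73.8 of the abundant class.

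The Egr genes encode zinc finger factors that bind GC-rich sites and are induced with *Fos* by growth factor signals. *Egr1* (chromosome 18, 34859823 to 34864984, plus strand) had 38465 counts in Ctrl basal and 46971 in CL basal, the most counts of the 10 genes in CL basal. Its log2 fold change was 0.28 (0.26 to 0.30), with RPKM of 224 and 272. *Egr2* (chromosome 10, 67535475 to 67542188, plus strand), best known from the Schwann cells that myelinate nerves, had 5391 and 6901 counts, the fewest of the 10. Its log2 fold change of 0.35 (0.30 to 0.40) was the second largest, and its interval overlapped those of *Fos*, *Fosl1*, *Fosl2* and *Egr1*.

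**Figure D3:**
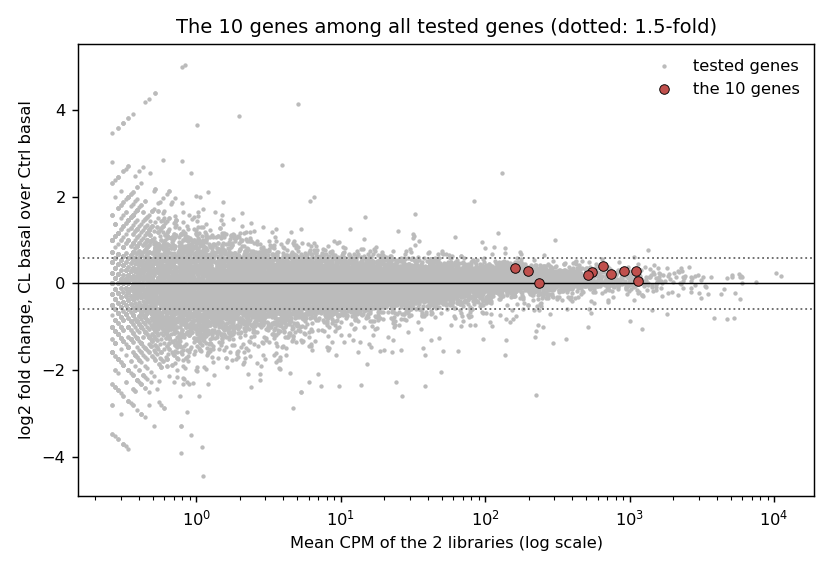
Log2 fold change (CL basal over Ctrl basal) against mean CPM of the 2 libraries on a log scale for the 17356 tested genes (grey) and the 10 early response genes (red), with 1.5-fold as dotted lines. The red points lie at the abundant end, where grey points spread little, and between 0.01 and 0.41.

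Ratios of counts within a library need no scaling, and beyond counting error they showed that the 10 genes did not differ alike. They rest on the same counts as the log2 fold changes. *Jun*, the denominator, had a lower log2 fold change (0.04) than every gene but *Jund*. The direction of these ratios was thus fixed by that choice. Per count of *Jun*, *Fos* had 0.503 counts in Ctrl basal and 0.647 in CL basal, a log2 difference of 0.36 (95% interval for counting error 0.33 to 0.40). *Egr2* had 0.126 and 0.156 per count of *Jun* (0.31, 0.25 to 0.36) and *Junb* had 0.449 and 0.522 (0.22, 0.18 to 0.25). For *Jund* over *Jun*, 0.209 and 0.205, the log2 difference of -0.03 (-0.08 to 0.02) was not detectable at this depth. The other 5 genes had more counts per count of *Jun* in CL basal, by 0.16 (*Atf3*) to 0.25 (*Fosl2*) on the log2 scale.

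The Fos family summed to 86428 counts in Ctrl basal and 106481 in CL basal, and the Jun family to 71151 and 76578. The ratio of the Fos family to the Jun family was thus 1.21 in Ctrl basal and 1.39 in CL basal, a log2 difference of 0.19 (0.18 to 0.21). The makeup of each family by RPKM differed little. *Fosl1* made up 56.7% of the Fos family in Ctrl basal and 55.8% in CL basal, *Fos* 28.1% and 30.0%, *Fosb* 13.0% and 12.1%, and *Fosl2* 2.16% and 2.13%. In the Jun family *Jun* made up 49.4% and 47.3%, *Junb* 30.8% and 34.2%, and *Jund* 19.8% and 18.5%. *Egr1* made up 84.4% and 83.8% of the sum of *Egr1* and *Egr2*. By raw counts without length, *Fosb* would make up 30.6% and 28.8% of the Fos family, since its exons are long.

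**Figure D4:**
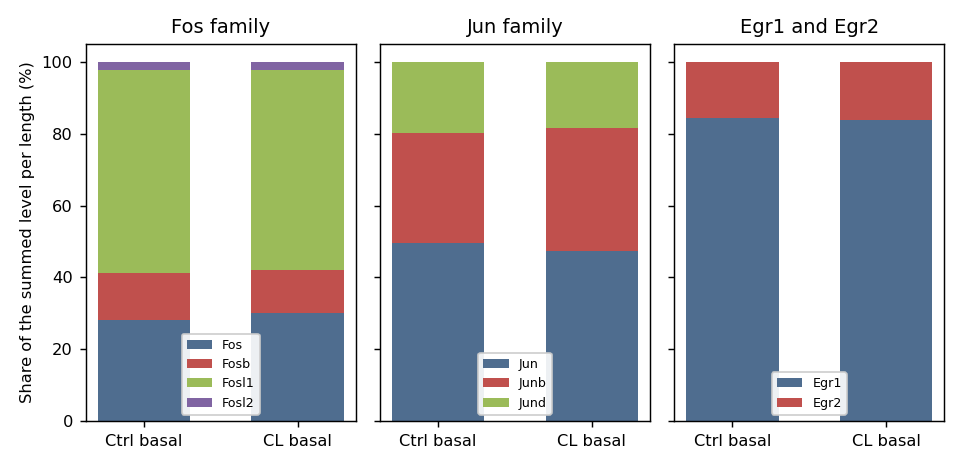
Share of each gene in the summed level per length of its family, in percent, for 1 Ctrl basal and 1 CL basal library. *Fosl1* is the main Fos gene in both, at 56.7% and 55.8%, and the share of *Junb* in the Jun family is 30.8% and 34.2%.

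Other genes of the pathway were described by lists, with 1.5-fold as the mark and the shares of all tested genes given above as background. Of 24 tested immediate early genes other than the 10, 17 were above 0 and 7 below, with a median log2 fold change of 0.18. Of the 16 with at least 10000 counts, 12 (75%) were above 0, against 67.3% of all such genes. None was at least 1.5-fold higher, and *Npas4* had too few counts to pass the filter. The list shares *Dusp1*, *Zfp36*, *Egr3* and *Egr4* with lists described next. The highest were *Nr4a1*, an orphan nuclear receptor gene, with 9285 counts in Ctrl basal and 13395 in CL basal (0.52, 0.49 to 0.56), and *Arc*, with 26746 and 37755 (0.49, 0.47 to 0.52). *Ctgf*, a matrix protein gene, with 26328 and 13250 counts (-0.99, -1.02 to -0.96), and *Ptgs2*, the inducible cyclooxygenase gene, with 3331 and 1987 (-0.75, -0.83 to -0.67), were the 2 that were at least 1.5-fold lower.

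**Figure D5:**
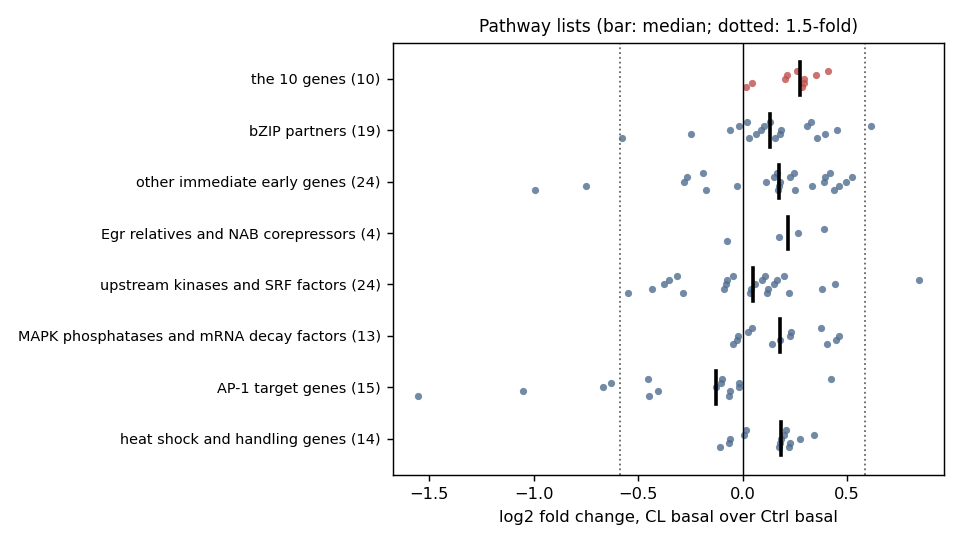
Log2 fold change (CL basal over Ctrl basal) of each tested gene in the 10 early response genes (red) and in 7 pathway lists (blue), with the number of tested genes in brackets, the median as a black bar and 1.5-fold as dotted lines. The AP-1 target list is the only list with a median below 0.

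Among partners and relatives, 15 of the 19 bZIP (basic leucine zipper) genes were above 0, with a median of 0.13, against 48.2% of all tested genes. The 5 with at least 10000 counts were all above 0, as were 67.3% of all genes with that many. *Batf2* was the only one at least 1.5-fold higher, with 90 counts in Ctrl basal and 139 in CL basal (0.61, 0.23 to 1.02). *Batf*, whose product pairs with Jun proteins in lymphocytes, had 147 and 98 counts (-0.58, -0.97 to -0.21). The small Maf gene *Maff* had 21702 and 28551 counts (0.39, 0.37 to 0.42), and *Maf* had 2590 and 3549 (0.45, 0.38 to 0.52). *Egr3* had 1045 and 1372 counts (0.39, 0.27 to 0.51), while *Egr4* had 75 and 85 (0.17, -0.29 to 0.64). *Nab2*, a corepressor gene that EGR proteins induce, had 1782 and 2146 counts (0.26, 0.17 to 0.36), and *Nab1* had 8379 and 7965 (-0.08, -0.12 to -0.03). The median of these 4 Egr and Nab genes was 0.22, and *Wt1* had too few counts to be tested.

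Upstream, 14 of the 24 kinase and SRF factor genes were above 0 and 10 below, with a median of 0.05, against 48.2% of all tested genes above 0. *Elk3*, whose product binds beside SRF, had 764 counts in Ctrl basal and 523 in CL basal (-0.55, -0.71 to -0.39), and *Mkl1*, a coactivator of SRF, had 2057 and 1527 (-0.43, -0.53 to -0.34). *Rps6ka5* had 195 and 266 counts (0.44, 0.17 to 0.72) and *Mapk14*, the gene of the kinase p38 alpha, had 736 and 959 (0.38, 0.24 to 0.52). The 1 gene at least 1.5-fold higher was *Mapk10*, with 8 and 16 counts and an interval from -0.31 to 2.43. Of the 13 genes of MAP kinase phosphatases and mRNA decay factors, which end the response, 10 were above 0, with a median of 0.18 and none past 1.5-fold, and the 4 with at least 10000 counts were all above 0. The shares of genes above 0 to set beside these are again 48.2% of all tested genes and 67.3% of those with at least 10000 counts. They were led by *Dusp1* (3804 and 5250 counts, 0.46, 0.40 to 0.52), *Dusp7* (4251 and 5813, 0.45, 0.39 to 0.51), *Dusp14* (346 and 459, 0.40, 0.20 to 0.61) and *Dusp6* (4113 and 5352, 0.38, 0.32 to 0.44).

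The list of genes with known AP-1 sites had a median below 0. Of the 15 tested of 16 (*Mmp10* had too few counts), 14 were below 0 and 4 were at least 1.5-fold lower, with a median of -0.13 (-0.27 among those with at least 100 counts). Among all tested genes 48.2% were above 0 and 11.7% at least 1.5-fold lower. Of the 5 target genes with at least 10000 counts, 1 (20%) was above 0, against 67.3% of all genes with that many. Markers of other cell types were mostly below 0 as well, with 14 of 14 luminal (median -0.79), 6 of 7 fibroblast (-0.49), 5 of 7 endothelial (-0.30), 8 of 10 tested macrophage (-0.28) and 6 of 8 tested lymphoid genes (-0.02) lower in CL basal. Of the macrophage markers 3 were at least 1.5-fold lower and 1, *Mpeg1*, at least 1.5-fold higher, and of the lymphoid markers none passed 1.5-fold. Among the lymphoid genes counted as lower, *Cd3e* (14 counts in each library) and *Cd8a* (10 in each) were below 0 by the scaling alone. The part of these cell types in the values of this list was not tested. The 4 target genes at least 1.5-fold lower were the matrix protease gene *Mmp3* (1076 counts in Ctrl basal and 367 in CL basal, -1.55, -1.73 to -1.38), the heme oxygenase gene *Hmox1* (62757 and 30347, -1.05, -1.07 to -1.03), the urokinase gene *Plau* (3701 and 2337, -0.67, -0.74 to -0.59) and *Mmp9* (202 and 130, -0.63, -0.97 to -0.31). *Vegfa*, named after its values were seen, was the exception, with 48572 and 65218 counts (0.42, 0.40 to 0.44).

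Of the 14 genes of heat shock and handling, 11 (78.6%) were above 0, with a median of 0.18, and none passed 1.5-fold. All 14 had at least 10000 counts, and of all genes with that many 67.3% were above 0, with a median of 0.09, so the share in the list lay near that of genes as abundant. *Hspa5*, a chaperone gene of the endoplasmic reticulum, had 61396 counts in Ctrl basal and 78092 in CL basal (0.34, 0.33 to 0.36), *Hsph1* had 19596 and 23778 (0.28, 0.25 to 0.30), *Hsp90ab1* had 362088 and 425315 (0.23, 0.22 to 0.23) and *Hsp90aa1* had 201711 and 235422 (0.22, 0.21 to 0.23). The genes of inducible HSP70, *Hspa1a* (22963 and 21979 counts, -0.07) and *Hspa1b* (50829 and 51443, 0.01), named after their values were seen, lay close to 0. The part of handling genes and of the lower luminal RNA in the values of the 10 early response genes was not tested.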

How the data were processed

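RNA was from sorted mouse mammary basal cells, 1 library for Ctrl basal and 1 for CL basal, made with a SMARTER mRNA kit per the labels and read on an Illumina HiSeq. The authors deposited raw counts of reads over the annotated exons of each gene on GRCm38, in the layout of featureCounts. The aligner, annotation release, strand setting and filters are not given in the sources used here. A ratio and a log2 ratio of the 2 columns, also deposited, were not used. Of values from 1 to 20, 67.9% (Ctrl basal) and 68.7% (CL basal) were even, so mates of a pair may have been counted separately and intervals may be too narrow. With counts halved, 9 of the 10 intervals still lay above 0. All 10 genes lay at the same place in GENCODE M21, 9 with the same ends.

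Counts were scaled by TMM in edgeR 4.0.16 (R 4.3.3), with a factor of 1.013 for Ctrl basal and 0.987 for CL basal, and log2 fold changes used a prior count of 2. Intervals of 95% were exact (Clopper-Pearson, scipy 1.17.1), Poisson for levels and normal on the log scale for ratios within a library. Genes were tested, in the sense of compared, from 20 summed counts. Being called past a fold involved no p-value, since 1 library per group allows no test of the conditions. The scripts were tested on counts drawn from the real means. In each pathway list, the up to 4 genes with at least 100 counts and the largest difference were named, with any count of 5 or fewer in full. The 10 genes and the lists were chosen with earlier results of these data known. No gene was named for a likeness of pattern, since 2 libraries give 1 ratio per gene. Alternatives were scaling by total counts, DESeq2 1.42.0 size factors or the upper quartile, prior counts of 0.5 and 5, at least 1 or 100 summed counts in place of 20, a thinned library, halved counts, a lowess trend on mean expression removed (statsmodels 0.14.6), a 2-fold mark and a whole interval past the mark.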

Additional observations from a re-analysis of the deposited data

How the results depend on the processing

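The count of 0 genes past 1.5-fold in either direction held under the 3 other scalings, with the deeper library thinned and with the trend on mean expression removed. These settings moved the values little. The highest was *Fos* at 0.42, against 0.58 for 1.5-fold, so they had little room to alter the count. The 2-fold mark, the demand that the whole interval pass the fold, and the filters on low counts could not have altered the count at all. The median of the 10 log2 fold changes ran from 0.19 (trend on mean expression removed) to 0.28 (upper quartile). Of the 50 values for single genes under those 5 settings, 3 changed sign, 15 moved beyond the counting interval without a change of sign and 32 did neither. With the trend removed, 8 of the 10 genes moved beyond it and 2 changed sign. Other filters and prior counts and halved counts leave genes this abundant all but the same by construction. The 3 were *Jund* with scaling by total counts (-0.025, still within its counting interval), and *Jun* (-0.036) and *Jund* (-0.069) with the trend removed, the settings under which 9 and 8 of the 10 genes were above 0. *Fos* ran from 0.32 to 0.42. For scaling by total counts, all genes shift alike, to a median of -0.045. No paired analysis was possible because a group held a single library, and no replicate could be left out. Depth did not limit the 10 genes, whose intervals were narrow, but the lack of replicates did.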
